A study of Mus musculus with 24 samples.

Results

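The 6 libraries described here came from disomic (2N) male mice whose dams ate the control diet, and they were chosen by their titles from 24 libraries of the series. Each held RNA of about 500 neurons from the medial septum and vertical limb of the diagonal band (MS/VDB) of 1 mouse aged about 6 months, cut from 20 µm frozen sections by laser after staining for choline acetyltransferase (ChAT) protein. The dams were Ts65Dn females crossed to C57Bl/6J Eicher × C3H/HeSnJ F1 males, so the 2N animals are disomic littermates of Ts65Dn mice on a mixed background. Breeders and pups ate chow with 1.1 g/kg choline chloride until weaning and the pups stayed on it afterwards. The other 18 libraries came from Ts65Dn mice or from offspring of dams given 5.0 g/kg, and they enter only a count of libraries and 1 alternative fit. Levels are TPM (deposited transcript shares), which are scaled per length and so can be set side by side between genes. TPM also moves with the effective length that RSEM gave a gene in each library, so counts per 1000000 counts of the library (CPM) are given where they change which libraries stand out. The animals are called replicates 1 to 6, in the order of their accessions.

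Basal forebrain cholinergic neurons send axons to the hippocampus and cortex and use acetylcholine as transmitter. They make it with ChAT, load it into vesicles with the transporter encoded by Slc18a3, and take choline back up with the transporter encoded by Slc5a7. In the adult forebrain they are also known for the low-affinity neurotrophin receptor p75, encoded by Ngfr, and for a developmental origin under the LIM homeobox factors Lhx8 and Isl1. In the septum they lie among GABAergic neurons, many of which make parvalbumin, and among a smaller number of glutamatergic neurons.

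Total expected counts ran from 7626880 to 13307831 per library, and between 16851 and 21016 genes had a value above 0. The 2 mitochondrial ribosomal RNAs took 22.8% ± 2.44 (SD, n = 6) of counts, and nuclear protein-coding genes took 63.6% to 72.3%. Because TPM is a share, 3 unnamed gene models with an effective length of 7 bases took 10.4%, 11.9%, 11.4%, 17.7%, 16.9% and 29.0% of all TPM in replicates 1 to 6, although they held at most 0.188% of the counts of a library. Every other gene's TPM was lower by that share, most of all in replicate 6, and values rescaled over nuclear protein-coding genes served as an alternative.

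The 4 cholinergic markers were present at low levels. Chat had 7.01, 12.8, 4.48, 17.1, 0.34 and 9.43 TPM in replicates 1 to 6, a mean of 8.52 ± 5.97 (SD, n = 6), which ranked 7992 of 21863 nuclear protein-coding genes. In replicate 5 the 0.34 TPM rested on 6 counts, against 90 to 258 counts in the others. Slc18a3, the vesicular acetylcholine transporter, had 2.0, 3.4, 1.52, 5.81, 0.67 and 0.3 TPM. Slc18a3 was thus highest in replicate 4, and its 3 lowest values were those of replicates 3, 5 and 6. On CPM, Chat was highest in replicate 6 (24.5) and next in replicate 4 (22.1), so no single library led it on both scales. Slc5a7, the high-affinity choline transporter, had 1.67, 3.19, 5.06, 5.25, 12.2 and 6.84 TPM, and here replicate 5 was highest. Ngfr had 9.60 to 26.3 TPM with a median of 14.9, a ratio of highest to lowest of 2.74 and the narrowest of the 4. No replicate was lowest in all 4 genes, and their sum ran from 20.3 to 54.5 TPM.

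Genes of GABA synthesis and transport stood far higher. Gad1, which makes GABA from glutamate, had 296, 312, 257, 151, 223 and 300.0 TPM, a mean of 257 ± 61.2 (SD, n = 6) at rank 154. Slc32a1, the vesicular GABA transporter, had 99.4 to 166 TPM with a median of 129. Gad2, the second GABA-making enzyme, had 29.2 to 76.2 TPM with a median of 51.7. All 5 genes of the GABAergic group were at 1 TPM or more in all 6 libraries, and no library's Chat reached the lowest library's Gad2. The mean of Gad1 was 30.1 times that of Chat, and the ratio within a library ran from 8.85 in replicate 4 to 656 in replicate 5. Summing Gad1, Gad2 and Slc32a1 against Chat, Slc18a3 and Slc5a7 gave ratios from 9.94 to 48.8 with a median of 29.3. Gad1 exceeded Chat in 24 of 24 libraries of the series. At RNA level the 6 libraries therefore do not have the makeup that the label of a cholinergic population names, and they are called control-diet 2N libraries here. In captured tissue, fewer cells of a type and less RNA per cell cannot be told apart, and ChAT protein was not measured in these data.

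**Figure D1:**
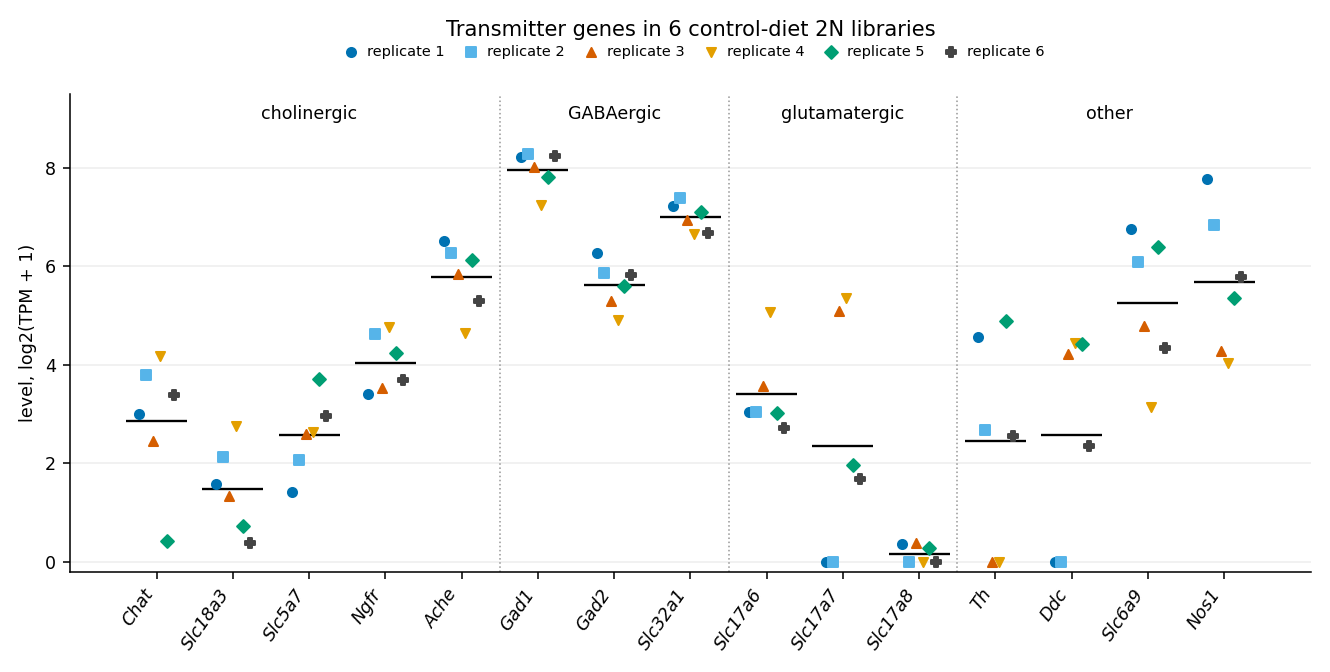
Level of 15 transmitter genes as log2(TPM + 1), with 1 symbol per library (replicates 1 to 6) and a black line at the mean of the 6. The 6 points of Gad1 all lie above every point of Chat, Slc18a3, Slc5a7 and Ngfr, while Slc17a7, Th and Ddc are at 0 in some libraries.

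Across the genome, 8178 of 21863 nuclear protein-coding genes (37.4%) had 1 TPM or more in all 6 libraries, and 7125 (32.6%) had it in none. Of the transmitter genes examined, 15 of 36 did so, a share of 41.7% close to the background. Among the cholinergic genes, 3 of 8 did: Ache, which degrades acetylcholine (24.0 to 90.8 TPM, median 63.1), Slc44a1, a choline transporter-like protein (17.8 to 52.1, median 31.8), and Slc5a7. Ache was lowest in replicate 4, also on CPM (46.2 against 88.0 to 142). Of the glutamatergic genes, the vesicular glutamate transporter Slc17a6 had 7.3, 7.24, 11.0, 32.7, 7.18 and 5.6 TPM. Replicate 4 was highest, but on CPM it was less apart, at 57.6 beside 34.1 in replicate 3 and 4.38 to 22.2 in the others. Slc17a7, the vesicular glutamate transporter of cortical neurons, had 0, 0, 33.2, 39.9, 2.9 and 2.2 TPM, and Slc17a8 stayed at 0.3 or less. Replicates 3 and 4 thus lay far above the others in Slc17a7, while replicates 1 and 2 had no read of it.

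None of the 12 monoaminergic genes reached 1 TPM in every library, beside 37.4% of all genes. Of the 12, 8 stayed under it in all, beside 32.6% of all genes. Th, which makes the dopamine precursor, had 22.8, 5.43, 0, 0, 28.8 and 4.91 TPM. Ddc, the next enzyme of that path, had 0, 0, 17.8, 20.9, 20.5 and 4.11 TPM. Only replicates 5 and 6 held reads of both. Dbh, the next enzyme toward norepinephrine, and Slc6a3, the dopamine transporter, had no count in any library. A count of 0 allows up to 3 counts, which for Th came to 0.297 and 0.316 TPM in replicates 3 and 4. Nos1, the neuronal nitric oxide synthase, had 218, 113, 18.5, 15.5, 40.1 and 54.2 TPM. On CPM it had 214, 143, 91.0, 65.2, 137 and 80.6, so that replicate 5 lay close to replicate 2 and the ratio of highest to lowest fell from 14.0 to 3.28. Slc6a9, a glycine transporter, ran from 7.88 TPM in replicate 4 to 108 in replicate 1, and from 14.9 to 48.1 CPM in the same libraries.

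Receptors for GABA and glutamate led the receptor list. Of 222 receptor genes, 87 (39.2%) had 1 TPM or more in all libraries, near the 37.4% of all genes. The highest was Gabbr2, a subunit of the metabotropic GABA-B receptor, with 1034, 910.2, 779, 419, 753 and 546 TPM, a mean of 740.0 ± 227 (SD, n = 6). On CPM Gabbr2 was lowest in replicate 6 (430) and not in replicate 4 (516). The partner subunit Gabbr1 was lower and very even, at 142 to 183 TPM. Of the 19 GABA-A subunit genes, 7 were present in every library, among them Gabrb2, a beta subunit (72.3 ± 16.2 TPM, SD, n = 6). Some further members are given to show a family, and these were picked after their values were seen.

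Ionotropic glutamate receptors were nearly complete. All 4 AMPA and all 5 kainate receptor genes and 6 of 7 NMDA receptor genes passed 1 TPM in every library. Of all genes 37.4% did. Grin1, the obligatory NMDA subunit, had 187 to 323 TPM with a median of 281. Gria2, the AMPA subunit that limits calcium entry, had 104, 118, 189, 219, 146 and 105 TPM, and Grin2b had 75.0, 41.6, 57.3, 171, 101 and 110.2 TPM. Both were highest in replicate 4, whereas Grin1 was lowest there, on TPM and on CPM. Gria3 and Gria4 had 48.4 ± 6.33 and 63.5 ± 8.50 TPM, but Gria3 was less even on CPM, at 68.3 to 179. Among the metabotropic receptors, 6 of 8 were present in all libraries, and Grm5 had the highest mean, 63.6 ± 31.3 TPM (SD, n = 6).

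Neurotrophin receptors and sortilin-family receptors were all present, 9 of 9, beside 37.4% of all genes. Ntrk2, the receptor for brain-derived neurotrophic factor, had 103 to 202 TPM with a median of 150.5, and Ntrk3, the receptor for neurotrophin-3, had 69.0 to 120.3 with a median of 81.9. Sorl1, a sorting receptor known from Alzheimer disease genetics, had 50.1 to 140.2 TPM. The nuclear thyroid hormone receptor Thra was among the most even genes, with 185 to 231 TPM, although an exon of Nr1d1 overlaps it on the other strand and the strand setting of the counting is not stated.

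Receptors for acetylcholine were present at moderate levels. Of 5 muscarinic genes 4 passed 1 TPM in every library: Chrm3 (33.0 ± 22.3), Chrm2 (19.0 ± 7.31), Chrm1 (8.52 ± 5.20) and Chrm4 (7.63 ± 7.35 TPM, SD, n = 6). Of 16 nicotinic genes only Chrnb2 (14.6 ± 1.97) and Chrna4 (12.3 ± 7.60 TPM) did. Of the 16, 9 stayed under 1 TPM throughout, beside 32.6% of all genes. Chrna7 ran from 0 to 6.39 TPM. Serotonin receptors passed in 4 of 14 cases, with Htr1a, an inhibitory receptor, at 10.7 to 29.4 TPM. None of the 5 dopamine receptor genes passed, and 5 of 56 neuropeptide receptor genes did, against 37.4% of all genes.

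Channel genes passed more often than genes at large. Of 208, 109 (52.4%) had 1 TPM or more in every library, beside 37.4% of all genes. A mean of 10 TPM or more was reached by 92 of the 208, beside 7430 (34.0%) of all 21863 genes. At 1 TPM or more in every library were 20 of 26 calcium, 10 of 14 sodium and 45 of 94 potassium channel genes. For HCN and cyclic nucleotide-gated channels it was 4 of 10. The highest was Kcnab2, a cytoplasmic beta subunit of Kv1 potassium channels, with 382, 506, 320.4, 314, 407 and 474 TPM. Kcnab2 exceeded every other channel gene on average, and its range overlapped only that of Scn8a among the next 3. Scn8a, the sodium channel of the axon initial segment, had 157 to 367 TPM with a median of 229. Cacna2d2, an auxiliary calcium channel subunit, had 155 to 295 with a median of 241, and Scn1a, a sodium channel abundant in fast-spiking interneurons, had 97.4 to 171 with a median of 164.

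Further channel genes had lower mean levels than Scn1a. Kcnc1, a Kv3 potassium channel, had 164, 271, 71.7, 105, 56.2 and 95.0 TPM. On CPM it had 319, 344, 301, 288, 216 and 423, with replicate 6 highest, so the high TPM of replicates 1 and 2 did not hold there. Hcn2, a pacemaker channel, had 39.3 TPM in replicate 4 and 84.5 to 134 in the other 5, and 107 against 195 to 315 CPM. Cacna1a, the P/Q-type calcium channel of presynaptic terminals, had 78.9 to 140.2 TPM with a median of 120. Mcoln1, a lysosomal cation channel, averaged 116 ± 42.0 TPM (SD, n = 6), and Tmem63b, an osmosensitive channel, 114 ± 36.1. Cacna1b, the N-type calcium channel, had 212 TPM in replicate 5 and 23.5 to 52.9 in the others. On CPM replicate 5 had 321 beside 139 to 254, so the ratio of highest to lowest was 2.31 in place of 9.05.

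**Figure D2:**
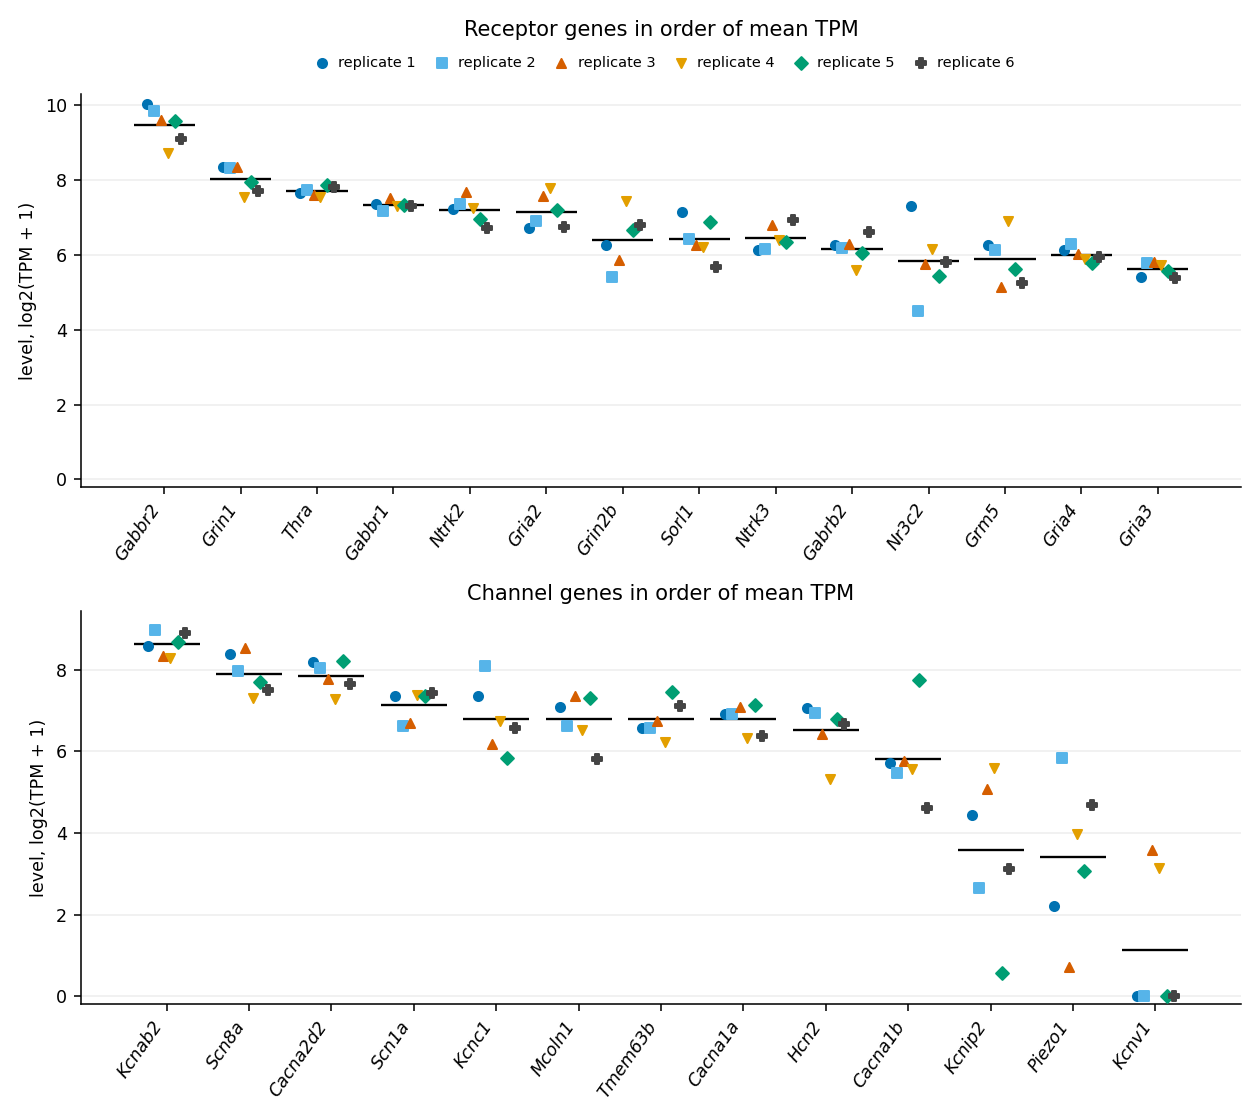
The 14 receptor genes (top) and 13 channel genes (bottom) shown in order of mean TPM, as log2(TPM + 1), with 1 symbol per library and a black line at the mean. Gabbr2 leads these receptors and Kcnab2 the channels, and on this TPM scale the spread is wider for Nr3c2, Kcnc1 and Cacna1b than for Thra or Gabbr1.

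The neuropeptide list was sparse except for Penk. Of 59 precursor genes, 3 (5.08%, beside 37.4% of all genes) passed 1 TPM in every library. Of the 59, 24 had no count in any library, beside 4633 of all 21863 nuclear protein-coding genes. Leaving out replicate 4 raised the 3 to 6, since Vip, Pnoc and Cartpt were under 1 TPM only there (0.17, 0.57 and 0.86). Penk, the precursor of enkephalins, had 341, 417, 141, 241, 386 and 347 TPM, a mean of 312 ± 103 (SD, n = 6) at rank 107, with an exon of an unnamed gene overlapping it on the other strand. Gnrh1, the precursor of gonadotropin-releasing hormone, whose neurons lie scattered in the septum and diagonal band, had 59.2, 20.3, 18.5, 48.6, 42.1 and 49.7 TPM, on 56 to 240 counts. Nucb2, the nesfatin precursor, had 7.24 to 68.1 TPM. All 6 animals thus held Penk and Gnrh1, and their ranges did not overlap.

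Other precursors were uneven between libraries. Sst, somatostatin, had 8.51, 18.1, 56.0, 20.1, 0.71 and 37.6 TPM. Cck, cholecystokinin, had 5.75, 16.4, 26.7, 68.0, 0 and 0 TPM. Npy, neuropeptide Y, had 39.2 and 31.3 TPM in replicates 3 and 4 (169 and 127 counts) and no count in the other 4, which allows at most 0.921 TPM. Tac1, the substance P precursor, followed the same libraries, with 6.79 and 8.15 TPM in replicates 3 and 4 and 0.54 or less elsewhere. Gal, the precursor of galanin, a peptide known for coexpression with ChAT in rodent septum, had 7.6, 0, 5.19, 1.55, 8.16 and 0 TPM. The machinery of dense-core vesicles, by contrast, was present throughout. All 11 granin and prohormone-processing genes passed 1 TPM in every library, beside 37.4% of all genes. They were led by the processing enzyme Cpe (508 ± 96.3) and the granin Chga (350.0 ± 89.0 TPM, SD, n = 6). Scg2, another granin, was even at 99.9 to 133 TPM.

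**Figure D3:**
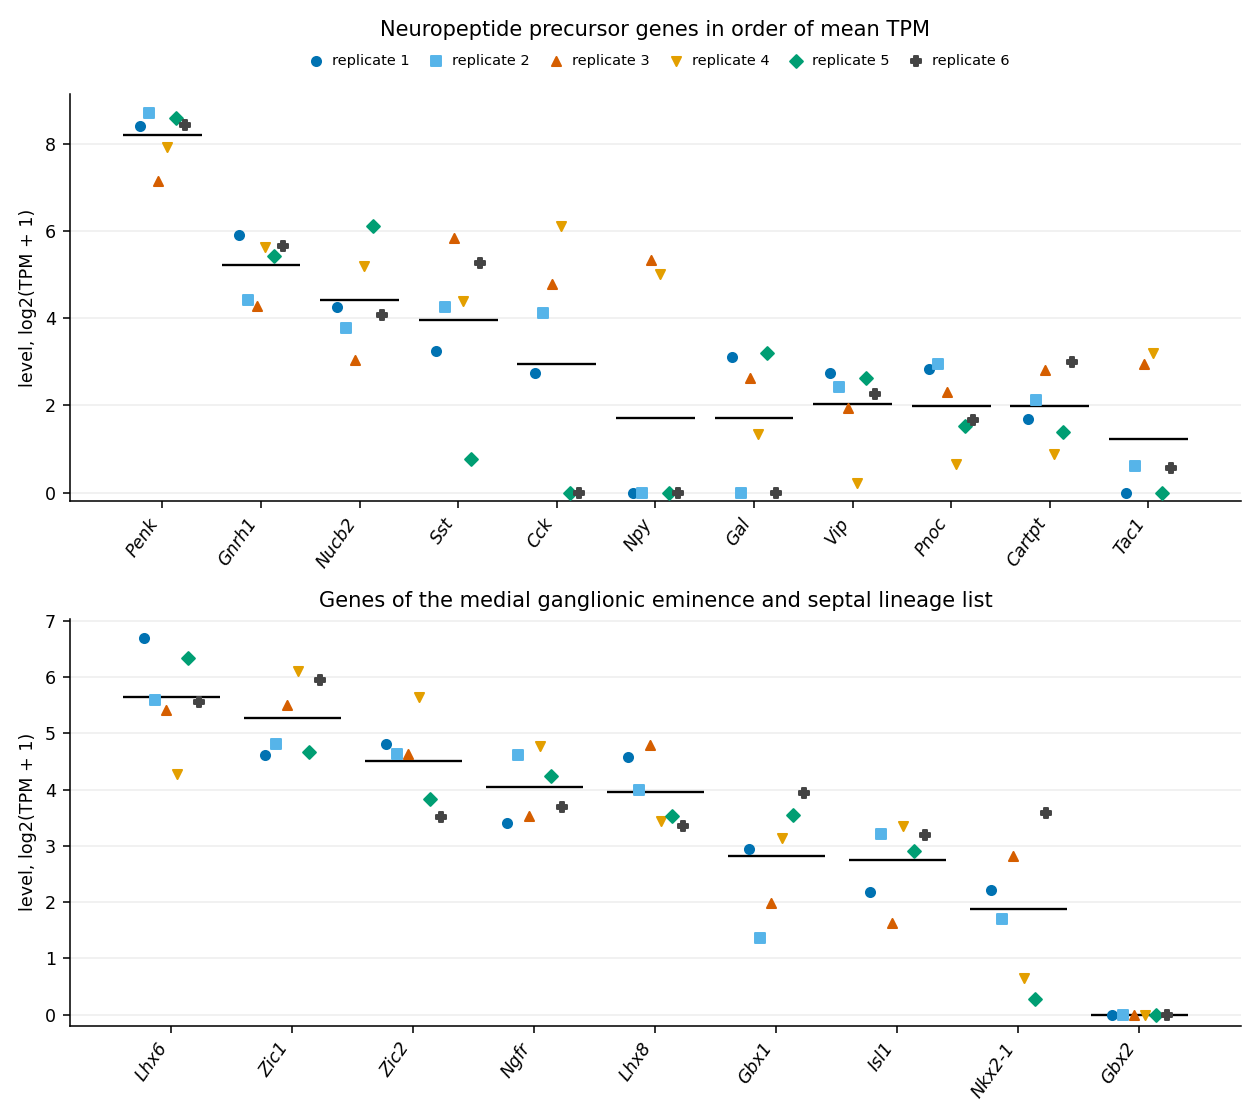
The 11 neuropeptide precursor genes with values in the text (top) and 9 genes of the medial ganglionic eminence and septal lineage (bottom), as log2(TPM + 1), with 1 symbol per library and a black line at the mean. Penk stands above the rest, Npy is at 0 in 4 libraries, and Lhx6 and Lhx8 are present in all 6.

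Transcription factor genes passed at the rate of all genes, 224 of 586 (38.2%). The highest means belonged to Peg3, an imprinted zinc finger gene (236 ± 50.7), the thyroid hormone receptor Thra (207 ± 17.5), Arnt2, a helix-loop-helix factor of neurons (169 ± 47.5), Tcf4, a broadly expressed helix-loop-helix factor (167 ± 63.9), and Nfe2l1, a stress-responsive leucine zipper factor (160.0 ± 43.6 TPM, SD, n = 6). Zeb2 (147), Tef (134), Mef2c (132), Camta1 (129) and Zeb1 (116 TPM) followed. Most ranges overlapped, but that of Thra lay above those of Camta1 and Zeb1. Mef2c, an activity-linked factor, was the least even of them, with 116, 89.9, 177, 276, 30.8 and 103 TPM, and its ratio of highest to lowest was 8.98 on TPM and 3.95 on CPM. Of 125 other homeobox genes 28 passed (22.4%, beside 37.4% of all genes). Of the 125, 68 stayed under 1 TPM in all libraries, as did 32.6% of all genes.

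Factors of the medial ganglionic eminence, the embryonic source of these neurons, were present more often than genes at large, 12 of 17 (70.6%). Lhx8, which drives the cholinergic fate, had 22.8, 14.9, 26.7, 9.93, 10.6 and 9.26 TPM. Lhx6, which marks GABAergic neurons of the same origin, had 103, 47.1, 41.9, 18.4, 80.0 and 46.3 TPM, with an exon of the unnamed gene Gm27953 overlapping it on the same strand. On CPM Lhx6 had 150, 104, 100, 54.1, 86.4 and 124, so the high TPM of replicate 5 did not hold there. Lhx6 exceeded Lhx8 in 6 of 6 libraries. Isl1, the partner of Lhx8 in cholinergic fate, had 2.1 to 9.21 TPM, and Gbx1 had 1.57 to 14.4. Zic1 and Zic2, zinc finger factors of the septum, had 23.5 to 68.1 and 10.4 to 49.0 TPM. Nkx2-1, the factor at the head of this lineage, had 3.64, 2.27, 6.11, 0.58, 0.22 and 11.0 TPM, and Gbx2 had no count.

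The most abundant nuclear protein-coding genes included those of lipid transport and protein folding. Apoe, the lipid carrier made mostly by astrocytes, had 1596 to 3479 TPM, and the chaperone Hspa8, which hosts small nucleolar RNAs counted on the same strand, had 1644 to 3170.2. App, the amyloid precursor, had 945 to 1988 TPM. Tatdn1 headed these protein-coding genes at 2406 to 8891 TPM, but it overlaps Rnf139 on the other strand, and its value in replicate 6 was the highest.

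Markers of neighbouring cells were abundant in every library. Mbp, the myelin basic protein gene of oligodendrocytes, had 1389, 1364, 1446, 773, 1377 and 1070.2 TPM and exceeded Chat in 24 of 24 libraries of the series. The 15 oligodendrocyte genes summed to 2601 ± 332 TPM (SD, n = 6). Of these 15, 13 passed 1 TPM in every library, beside 37.4% of all genes. The 15 astrocyte genes all passed, summed to 1725 ± 119 TPM, and were led by the glutamate transporter Slc1a2 (413 to 566 TPM). Set against 14 general neuron genes, which summed to 4428 ± 719 TPM, oligodendrocyte markers came to 59.8% ± 10.6, astrocyte markers to 39.8% ± 6.54, GABAergic markers to 18.1% ± 1.18 and the 4 cholinergic markers to 0.802% ± 0.460 (SD, n = 6). The cholinergic sum was the smallest of these 4 in each of the 6 libraries. The lists differ in number and abundance of genes, so the percentages do not measure shares of cells.

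The other lists summed to less than the astrocyte list. Vessel markers summed to 488 ± 63.6 TPM, of which Bsg, also made by neurons, held 242 to 364. Oligodendrocyte precursor markers summed to 243 ± 45.3 TPM and microglial markers to 104 ± 35.4, with Tyrobp at 0 in all 6. Striatal projection neuron markers summed to 490.0 ± 78.5 TPM, and Penk made up 312 of them. Foxp1 (58.4), Pde10a (33.1), Bcl11b (26.5), Ppp1r1b (23.4) and Rgs9 (17.8 TPM) followed in mean level, whereas Drd2 had 0.87 to 12.7 TPM and Adora2a 5.21 or less. Lateral septal markers summed to 27.5 to 80.8 TPM. Of these 8 genes 1 passed 1 TPM in every library, beside 37.4% of all genes. Sst, also on the GABAergic list, held 56.0 of the 80.8 TPM in replicate 3. In replicate 5, Dlk1 held 39.1 of 48.5 TPM.

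The glutamatergic list was higher in replicates 3 and 4 than in the other 4. Its sum was 212 and 260.0 TPM there and 49.2 to 83.3 elsewhere, and 179 and 220.1 against 46.2 to 83.3 without Slc17a7. Camk2a, a kinase gene, had the highest mean of that list. It held 131 and 180 TPM in replicates 3 and 4 and 38.2 to 73.9 elsewhere. Blood markers summed to 85.1 and 40.3 TPM against 1.04 to 19.9, with Hbb-bs at 63.1 and 36.3 TPM and 0 elsewhere and Hbb-bt at 0 in all. That difference rested on Hbb-bs: without it replicate 4 had 4.02 TPM, below the 19.9, 12.7 and 9.10 of replicates 1, 2 and 6, and Hba-a2 was highest in replicate 1 (17.4) and at 0 in replicate 3. Ependymal and choroid plexus markers summed to 98.4 and 62.8 TPM against 8.06 to 29.8, which rested on Ttr: without it the sums were 10.6, 17.6, 8.79, 2.97, 12.1 and 0.47 TPM, and replicates 3 and 4 did not stand apart. Folr1, Aqp1 and Tmem212 were at 0 in all 6. The part of these cells in the values of Slc17a7, Npy, Tac1 and Drd1 in the same libraries was not tested.

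**Figure D4:**
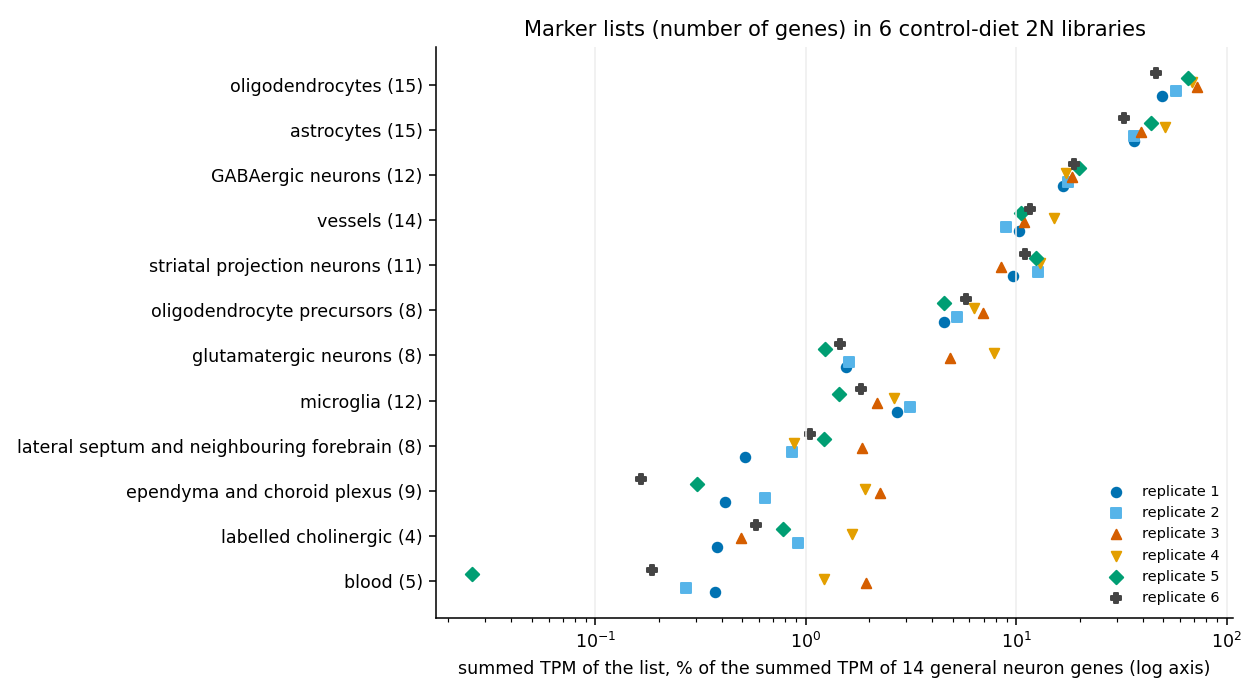
Summed TPM of 12 marker lists in each library, as a percent of the summed TPM of 14 general neuron genes on a log axis, with the number of genes of each list in parentheses. Oligodendrocyte, astrocyte and GABAergic lists lie far above the cholinergic list in every library, and replicates 3 and 4 are highest for glutamatergic, blood and ependymal lists, the last 2 of which rest on Hbb-bs and Ttr.

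The median spread between animals exceeded counting error in every range of counts. Among 10400 genes with a mean count of 50 or more, 3947 (38.0%) had an SD of log2(TPM + 1) over 1, and the median SD was 0.85. The median SD fell from 1.27 for genes of 50 to 100 counts, where counting error alone would give 0.17, to 0.34 for genes above 5000 counts, where it would give 0.017. A wide spread was therefore mainly a property of genes with few counts, and 72.4% of the first group passed an SD of 1 against 0.725% of the last. Channel genes passed in 33 of 127 cases (26.0%), receptor genes in 33 of 120 (27.5%) and transcription factor genes in 113 of 299 (37.8%), each to be read against 38.0%. These shares were not matched for count. No gene of the 14 general neuron markers passed, but all had mean counts of 776 or more. At such counts few genes passed, from 11.8% of genes with 500 to 1000 counts to 0.725% of those above 5000.

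Among the most variable members were genes absent from some animals. Slc17a7 had an SD of 2.38 on the log2 scale, Cck 2.54, Nmbr, the neuromedin B receptor, 2.27, and Ddc and Th 2.14 and 2.13. Nmbr had 17.8, 8.79, 0, 0.66, 34.4 and 0 TPM, and the dopamine receptor Drd1 had 6.36 and 8.99 TPM in replicates 3 and 4 and no count elsewhere. In the channel list Kcnip2, a Kv4-interacting protein, had the widest spread on TPM (SD 1.86, 0.47 to 47.1 TPM). The mechanosensitive Piezo1 (SD 1.83, 0.63 to 56.5 TPM) was among the widest on that scale. Both were narrower on CPM, where the SD of log2(CPM + 1) was 1.46 for Kcnip2 and 1.39 for Piezo1. Kcnv1, a silent potassium channel subunit, had 10.9 and 7.88 TPM in replicates 3 and 4 and no count elsewhere. Its SD on CPM was 2.63, above both. In the transcription factor list Nr4a2, a nuclear receptor of the immediate early type, had 0, 0, 17.1, 21.9, 5.8 and 15.3 TPM. Rarb, a retinoic acid receptor, had 26.4, 31.1, 0, 1.11, 4.16 and 29.0 TPM. The 0 values therefore did not fall in the same libraries for every gene. At the other end Fam193b had 149 to 165 TPM (SD 0.06 on the log2 scale), although 158 to 255 on CPM, and Pacsin1, a synaptic endocytosis protein, had 177 to 202 (SD 0.07).

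**Figure D5:**
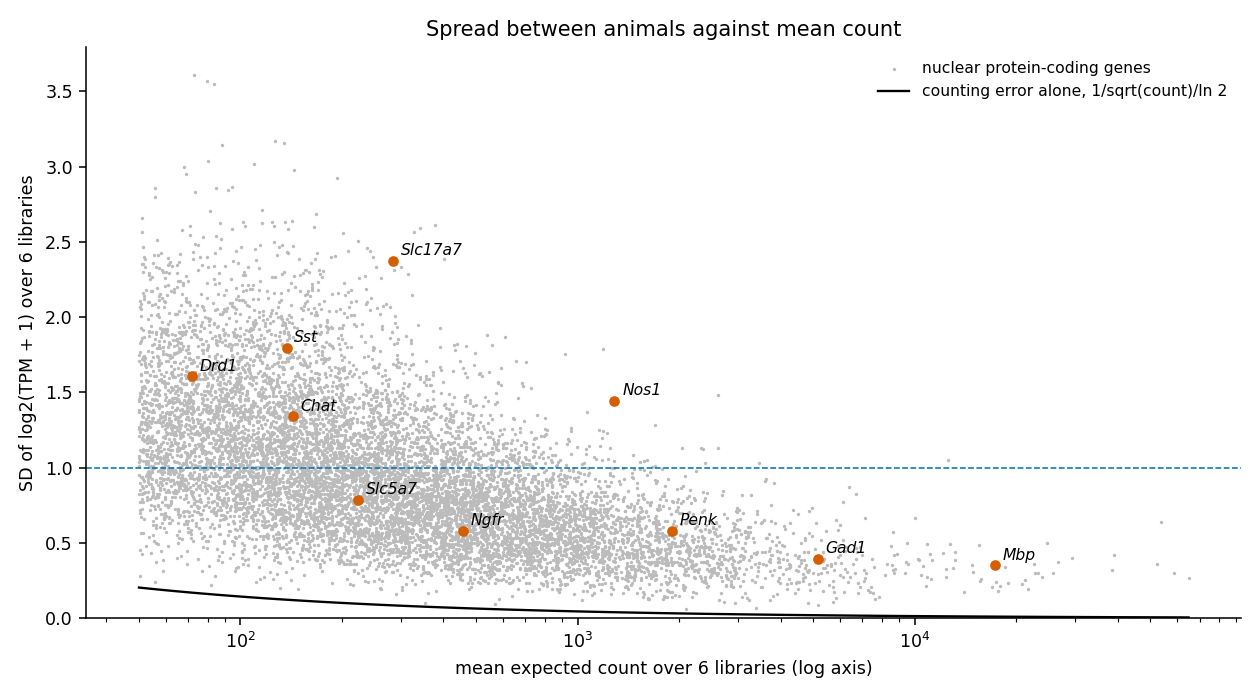
SD of log2(TPM + 1) over the 6 libraries against the mean expected count (log axis) for 10400 nuclear protein-coding genes (grey) with 10 named genes in orange, the spread expected from counting alone as a black line and an SD of 1 as a dashed line. All 10400 genes lie above the black line, and Slc17a7 stands out from genes of like count.

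The spread had some structure. Over these 10400 genes the Spearman correlation of log2(TPM + 1) between libraries ran from 0.616 to 0.776 over 15 pairs, with a median of 0.673. It was highest for replicates 1 and 2 (0.776) and for replicates 3 and 4 (0.760), and on CPM these were also the highest pairs (0.848 and 0.837). These values are across genes, which share length and mean level, and carry no test. Genes at 5 TPM or more in exactly 1 pair and under 1 TPM in the other 4 libraries numbered 34 for replicates 3 and 4 and 28 for replicates 1 and 2, with a median of 6 over all pairs. The 34 included Npy, Tac1, Drd1, Kcnv1, Hbb-bs, the helix-loop-helix factor Neurod1, the zinc transporter Slc30a3 and the immune factor Irf5. Which properties of the animals or captures the pairs shared was not tested.

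Replicates 1 and 2 also share the first part of the animal identifier (15, against 17 for the other 4), whose meaning is not stated. A comparison of 17 with 15 by edgeR's quasi-likelihood test called 5 of 17475 genes (0.0286%) at a Benjamini-Hochberg adjusted p under 0.05, and 1200 (6.87%) had an unadjusted p under 0.05. Aida (adjusted p = 0.0163), Nr4a2 (0.0296) and Slc17a7 (0.0445) were higher in 17, and 2 unnamed genes were lower. Aida had 0.51 and 0.22 TPM in replicates 1 and 2 and 6.18 to 91.7 in the other 4. Nr4a2 and Slc17a7 had no count in either library of prefix 15, so no fold is given. Without replicate 3 or without replicate 4 edgeR called 0 genes, with 899 and 904 at an unadjusted p under 0.05. It called 13 without replicate 5 and 6 without replicate 6. Leaving out replicate 1 or 2 gave 23 and 12 calls, but then prefix 15 has 1 library, which is assumed to vary like those of prefix 17. DESeq2's Wald test on all 6 called 456 at the same adjusted threshold.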

How the data were processed

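RNA of laser-captured neurons was sequenced by the study with a stranded total RNA kit for low input and single 50-base reads, per the labels' protocols. Per the submitters' processing notes the authors used Trimmomatic 0.39, STAR and RSEM, and the sources used here give no version of the last 2. The notes name the builds GRCm39 and mm10 without roles, so no coordinates are given. The deposited per-sample files hold TPM and RSEM expected counts per gene, and the 24 columns of the deposited series matrix equalled those expected counts.

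Of 55414 identifiers, 52081 matched GENCODE M21, which gave symbols, classes and exon overlaps. Levels are deposited TPM with mean and SD over 6 libraries. Spread is the SD of log2(TPM + 1), with a pseudocount of 1, for genes with a mean count of 50 or more. Expected counts were rounded for the identifier comparison (edgeR 4.0.16, filterByExpr, TMM, two-sided, R 4.3.3; DESeq2 1.42.0 as alternative). That test and the spread measure were tested on simulated data. Named genes were, per class, the 10 of highest mean and 6 of widest spread, the 12 highest and 12 widest and 8 narrowest of all genes, the lineage list, the 4 cholinergic markers and the 3 top markers per cell type. Some named genes are not reported here, though counts and sums over lists keep them. The members and lists were chosen with earlier results of these data known.

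Total counts were 7626880 to 13307831, and floors of 3 counts cover counting error only, since reads carried no molecular identifiers. Each library is 1 animal per the labels. No litter is given. The strand setting of the counting is not stated; of 153 named genes, 11 overlap an exon of another gene on the same strand and 47 on the other. Reads of some mitochondrial messages sit on near-identical nuclear copies, so these messages are not described. Alternatives were other TPM and count minimums, pseudocounts, rescaled TPM, medians, CPM and leaving out each library. CPM per library for named genes, and marker sums without 1 gene, were added after seeing the data.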

Additional observations from a re-analysis of the deposited data

Results flagged for a closer look

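Of 147 named genes tested, 13 marker lists and 11 library quantities, 2 values stood apart from the other 5 libraries by more than Dixon's 95% limit for 6 values, and chance alone would do so for about 1 in 20. The vesicular glutamate transporter Slc17a6 had 32.7 TPM in replicate 4, beside a median of 7.27; on CPM it had 57.6 there beside 34.1 in replicate 3. The summed GABAergic markers were lowest in replicate 4, at 568.2 TPM beside a median of 818, and as a share of the general neuron genes that library had 17.2%, within the 16.7% to 19.9% of the others.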

How the results depend on the processing

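Of 43 alternatives to 15 main results, other than leaving out a library, 30 kept the value within its spread or within 1.5 times the count. A minimum of 5 TPM lowered the genes present in all libraries from 8178 to 5366 and the transcription factors from 224 to 130, by construction. Neuropeptide precursors rose from 3 to 6 at a minimum of 0.5 TPM and also to 6 with rescaled TPM, and ran from 3 to 6 without 1 library. Genes with an SD over 1 fell from 3947 to 1429 with a pseudocount of 5 and to 1167 with a count minimum of 200. With the mean of log2(TPM + 1) over a list in place of the sum, the percentages of the general neuron list became 3.50 for cholinergic, 14.9 for GABAergic, 28.5 for astrocyte and 24.3 for oligodendrocyte markers, so that oligodendrocytes no longer exceeded astrocytes. The identifier comparison called 456 genes with DESeq2's Wald test, 41 with no filter beyond 1 count and 17 in a fit of all 24 libraries, and 0 to 23 without 1 library, where removing replicate 1 or 2 leaves prefix 15 with 1 library; the cause was not tested. Leaving out 1 library moved the ratio of Gad1 to Chat between 25.9 and 40.8. Of 1224 alternative ranks of named genes 1214 stayed within 1 SD, and the 10 others came from the median in place of the mean. Of the 200 widest genes, 175 were shared with rescaled TPM and 73 with CPM. With CPM in place of TPM, an alternative chosen after seeing the data, the ratio of highest to lowest library moved by over 1.5 times for 8 of 10 genes. No paired analysis was possible because the labels tie no animal to another and replicate numbers follow the accession order. Depth limits low genes most: in replicate 5 Chat rested on 6 counts.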
